A study of Homo sapiens with 12 samples.

Results

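The 9 genes described are the interferon regulatory factors IRF1, IRF2, IRF3, IRF5, IRF8 and IRF9 and the signal transducers STAT2, STAT3 and STAT4, found by gene symbol among the 58656 usable entries of the deposited expression table. All 9 were present and all 9 passed the filter on low values, as did 22528 genes in all: 4 or more libraries had to reach a log2 value of 1. RNA was sequenced from 4 established lines of diffuse large B-cell lymphoma, U2932, SUDHL-4, TMD8 and WSU-DLCL2, after 18 hours in DMSO, the solvent control, or in lenalidomide or CC-122 (avadomide). The 12 libraries are 4 per treatment, with each line sequenced 1 time under each. The labels name no genetic change made to the lines and no other cell type in the cultures. The doses used are not stated in the labels, and whether they matched is unknown. There is no replicate within a line, so nothing can be tested within one line. The p-values set a change against the spread left in all 12 libraries after line and treatment. The variance used also draws on other genes. The p-values therefore do not measure only how evenly that change appeared over the 4 lines. The spread may be technical in part.

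Lenalidomide and avadomide are small molecules that bind cereblon, part of a ubiquitin ligase, and lead to the breakdown of the lymphoid transcription factors Ikaros and Aiolos. Interferon regulatory factors (IRFs) are transcription factors with a shared DNA-binding domain that reads GAAA repeats, and STATs are latent factors that enter the nucleus once Janus kinases have phosphorylated them. Type I interferon brings STAT2 and IRF9 together in a complex, ISGF3, that switches on antiviral genes. IRF3 and IRF5 act earlier, downstream of nucleic acid sensors and Toll-like receptors, IRF1 and IRF2 act as activator and competing repressor at shared sites, and IRF8 shapes germinal-centre B cells together with the Ets factors PU.1 and Spi-B.

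The libraries carried the marker genes of B cells, since 6 of 6 such genes had a log2 value of at least 5 in all 12 libraries. Of 7 T and NK cell markers, 3 reached that level in any library and 0 in all, against 3 and 0 of 6 myeloid markers and 5 and 0 of 6 stromal and epithelial ones. The log2 of the summed linear values of the T and NK markers ran from 3.99 to 6.34 with DMSO, 4.84 to 6.92 with lenalidomide and 5.15 to 7.85 with avadomide, against 17.98 to 18.29 for the B cell markers with DMSO. The defining T and NK cell genes did not behave alike. CD3D (-1.43 to -0.06) and GNLY (-1.22 to -0.11) stayed below 0 in the 12 libraries. CD3E ran from 1.02 in TMD8 to 6.17 in SUDHL-4, both with DMSO, and CD8A from 1.05 in SUDHL-4 with avadomide to 6.47 in TMD8 with lenalidomide. In TMD8 the avadomide library was higher than the DMSO one by 6.16 for CD2, 2.34 for CD3G and 5.26 for NKG7. U2932 gave 1.12, 2.59 and 1.33 in the same order. SUDHL-4 and WSU-DLCL2 gave at most 0.03 for CD2 and CD3G, but 1.34 and 2.42 for NKG7. For the myeloid markers the same sum ran from 3.90 to 6.07, 4.25 to 6.69 and 4.31 to 7.57, with FCGR1A listed at 0 in every library. For the stromal and epithelial markers it ran from 4.93 to 11.04, 5.41 to 11.2 and 7.02 to 11.19. With avadomide NKG7, CD68, LYZ, COL1A1 and PECAM1 of these lists rose and the B cell gene CD22 fell, and the part of these markers in the results was not tested. As in any bulk sample, fewer cells of a kind and less RNA per cell cannot be told apart. Levels are the deposited log2 values, which are not stated to be scaled for gene length, so levels are compared between libraries and never between genes.

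Avadomide against DMSO asked which of these genes the newer compound moves. IRF9 and STAT2, the ISGF3 subunits in the set, rose over the 4 lines, and IRF8 fell, while the other 6 did not pass the threshold. Of all tested genes 13.6% rose and 11.2% fell in this comparison, 24.8% in all, so 3 of 9 is a share near that background. When each library was centred on its median, the 3068 that rose and 2514 that fell became 1881 and 4825. The median log2 fold change was -0.019 over the 9 genes and 0.011 over all tested genes.

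IRF9, the DNA-binding subunit of ISGF3 (chromosome 14, 24161053 to 24166565, plus strand, GRCh38, GENCODE release 29), stood at log2 values of 8.11 with DMSO, 8.19 with lenalidomide and 9.31 with avadomide in U2932. TMD8 gave 9.03, 9.26 and 9.97 in the same order, and WSU-DLCL2 gave 7.73, 7.78 and 8.99, while SUDHL-4 gave 7.55, 7.27 and 7.51. The avadomide library was thus the highest in 3 lines, by 1.20, 0.94 and 1.26 over DMSO, while SUDHL-4 changed by -0.04. Over the 4 lines IRF9 rose by 0.84 ± 0.18 (SE of the fit to all 12 libraries, log2 scale, 4 lines, limma adjusted p = 0.00989), or 1.79-fold in deposited units. The call was lost without U2932 (0.72; adjusted p = 0.0684), without WSU-DLCL2 (0.70; adjusted p = 0.0719) and with only the avadomide and DMSO libraries fitted, 8 in all (adjusted p = 0.0744). Without SUDHL-4 the adjusted p was 0.00115. Another gene annotated as protein-coding, AL136295.5, covers the whole of IRF9 on the same strand, 5513 bases of overlap, and how the authors' counting split such reads is not given in the sources used here.

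STAT2, the ISGF3 subunit that carries its transactivation domain (chromosome 12, 56341597 to 56360155, minus strand), moved much like IRF9. Its values with DMSO, lenalidomide and avadomide were 13.53, 13.66 and 14.17 in U2932. In TMD8 they were 13.09, 13.54 and 14.27, and in WSU-DLCL2 12.83, 12.98 and 13.76. SUDHL-4 again stood nearly still, at 12.92, 12.82 and 13.03. Within lines avadomide added 0.63, 1.18 and 0.93 in the first 3 and 0.10 in SUDHL-4. STAT2 rose by 0.71 ± 0.13 (n = 4 lines; limma adjusted p = 0.00522), or 1.64-fold, higher in 4 of 4 lines. This call held without any 1 of the lines (adjusted p from 0.00191 to 0.0473), but not with only the avadomide and DMSO libraries fitted, 8 in all (adjusted p = 0.0595).

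**Figure D1:**
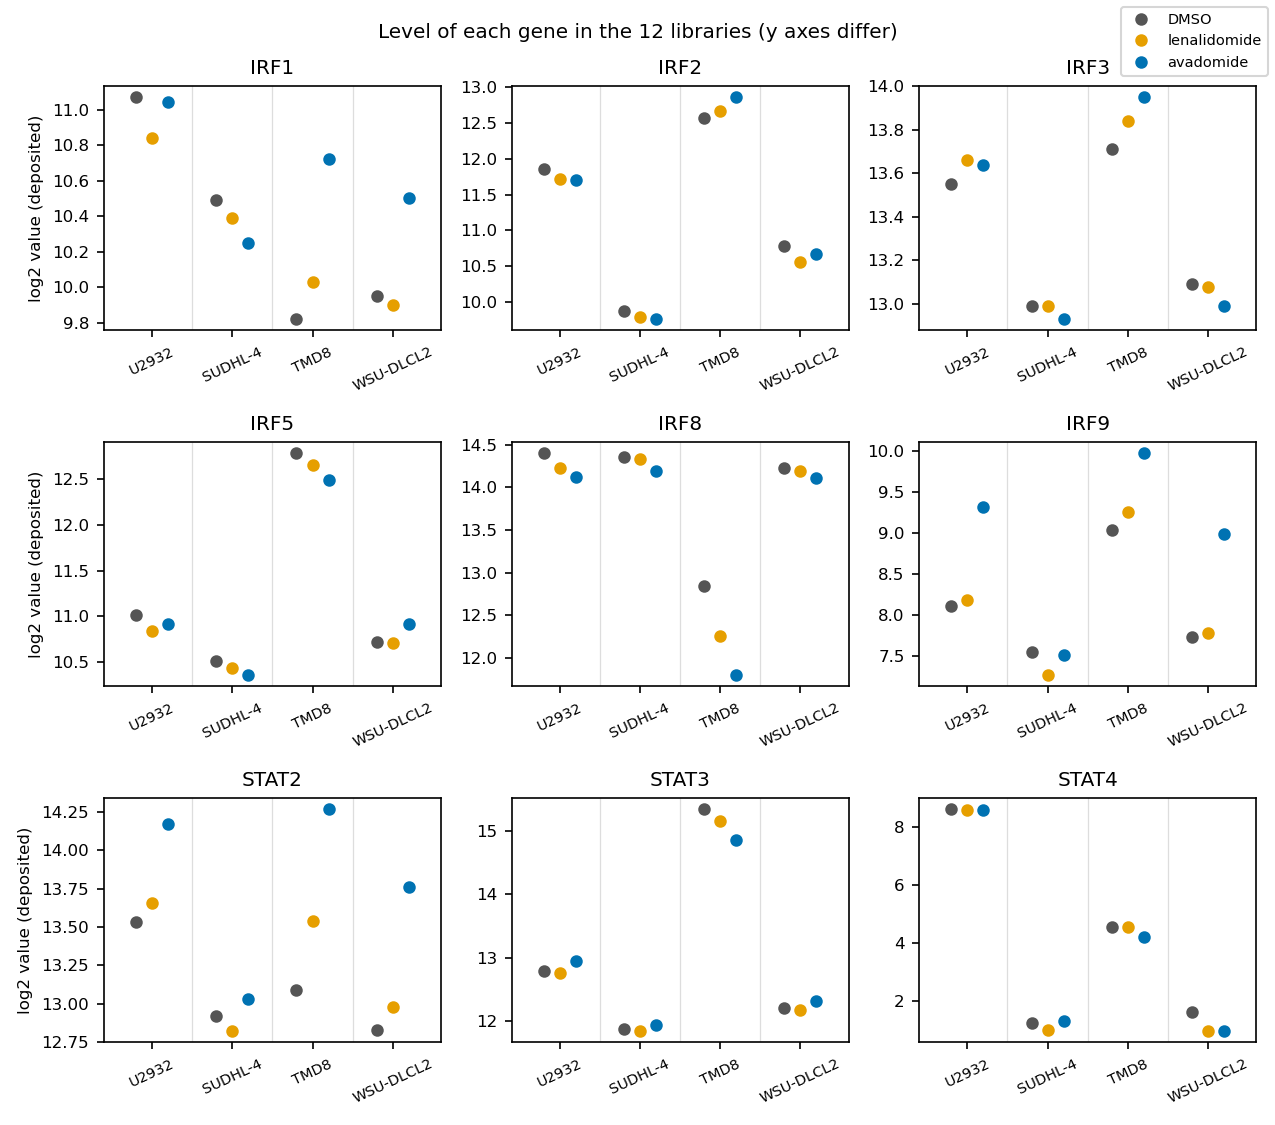
Deposited log2 value (y axis, own scale in each panel) of each of the 9 genes in the 12 libraries, by cell line (x axis) and treatment (colour); each point is 1 library. IRF9 and STAT2 with avadomide stand above the other libraries of U2932, TMD8 and WSU-DLCL2 and not clearly so in SUDHL-4, IRF8 is lowest in TMD8, and STAT4 is above 8 only in U2932.

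SUDHL-4 had the smallest change of the 4 lines for both ISGF3 genes, and it also had the lowest DMSO level of IRF9 (7.55 against 7.73 to 9.03). Its DMSO level of STAT2, 12.92, lay between the 12.83 of WSU-DLCL2 and the 13.09 of TMD8. With 1 library for each line and treatment, the difference between lines was not tested.

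The stretch before the start of a gene shows whether the letters that STATs and IRFs read lie close to it, and 3 such windows are given for the ISGF3 members and for IRF1, an interferon-induced gene in textbooks. Each is the 250 bases before a start in RefSeq (GRCh38.p14), printed 5′ to 3′ on the gene's strand, with matches to the motifs searched in capitals. They lie at chr14:24161015-24161264 for IRF9 (plus strand), chr12:56360108-56360357 for STAT2 (minus strand) and chr5:132490774-132491023 for IRF1 (minus strand).
IRF9: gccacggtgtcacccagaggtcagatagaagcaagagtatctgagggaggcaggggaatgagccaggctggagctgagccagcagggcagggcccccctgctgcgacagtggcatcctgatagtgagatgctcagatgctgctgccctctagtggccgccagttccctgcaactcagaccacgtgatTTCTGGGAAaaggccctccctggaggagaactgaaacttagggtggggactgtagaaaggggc
STAT2: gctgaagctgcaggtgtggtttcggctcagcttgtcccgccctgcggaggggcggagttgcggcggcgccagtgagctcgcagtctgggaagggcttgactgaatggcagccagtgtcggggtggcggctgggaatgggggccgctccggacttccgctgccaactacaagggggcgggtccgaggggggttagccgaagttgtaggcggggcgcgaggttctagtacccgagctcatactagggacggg
IRF1: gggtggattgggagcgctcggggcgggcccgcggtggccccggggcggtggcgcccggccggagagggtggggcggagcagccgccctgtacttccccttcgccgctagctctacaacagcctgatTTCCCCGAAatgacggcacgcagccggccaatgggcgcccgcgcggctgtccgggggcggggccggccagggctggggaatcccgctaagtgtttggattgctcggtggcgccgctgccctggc
Motifs were searched on both strands as TTCNNNGAA for the gamma-activated site that STAT dimers read, GAAANNGAA for the core of the interferon-stimulated response element that ISGF3 reads, and GGAANNGAA for the Ets-IRF composite element. The IRF9 window holds 1 gamma-activated site, TTCTGGGAA, 63 to 55 bases before its RefSeq start. That window runs past the GENCODE start at 24161053, so this site lies inside the gene as annotated there. The IRF1 window holds 1, TTCCCCGAA, 124 to 116 bases before its RefSeq start and outside the GENCODE gene. The STAT2 window holds none of these letters. Of 9 genes, 7 had an entry, with 12 windows in all, and IRF2 and IRF3 had none. The windows of IRF5 and IRF8 and a further one of STAT4 lie wholly inside the GENCODE gene. The 12 windows are therefore not all stretches before a gene as GENCODE places it. A gamma-activated site was found in 2 of the 12 windows and in 6.57% of the 35116 windows of the table. Ets-IRF composite letters were found in 2 of 12, before IRF5 (TTCGTTTCC, on the other strand) and STAT4 (GGAAGGGAA), against 6.58% of all windows. The response element core was found in 0 of 12, against 6.88%. A match is a description of letters and not a binding site.

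IRF8, a factor of germinal-centre B cells and myeloid cells (chromosome 16, 85898803 to 85922609, plus strand), fell with avadomide, mostly in TMD8. There its log2 values were 12.84 with DMSO, 12.26 with lenalidomide and 11.80 with avadomide, a change of -1.04 for avadomide. U2932 gave 14.40, 14.23 and 14.12. SUDHL-4 gave 14.35, 14.33 and 14.19, and WSU-DLCL2 14.22, 14.19 and 14.11. Avadomide was the lowest library in 4 of 4 lines, with changes of -0.28, -0.16 and -0.11 outside TMD8. IRF8 fell by 0.40 on the log2 scale (SE 0.13, n = 4 lines; limma adjusted p = 0.0442). TMD8 carries most of the mean, and the change without it was smaller in size but more even (-0.18; adjusted p = 0.0253). The call was lost when U2932 (adjusted p = 0.112), SUDHL-4 (0.0680) or WSU-DLCL2 (0.0710) was left out, with no intensity trend (0.0909) or no filter on low values (0.128), with a robust variance prior (0.0542), and with only the avadomide and DMSO libraries fitted, 8 in all (0.169).

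**Figure D2:**
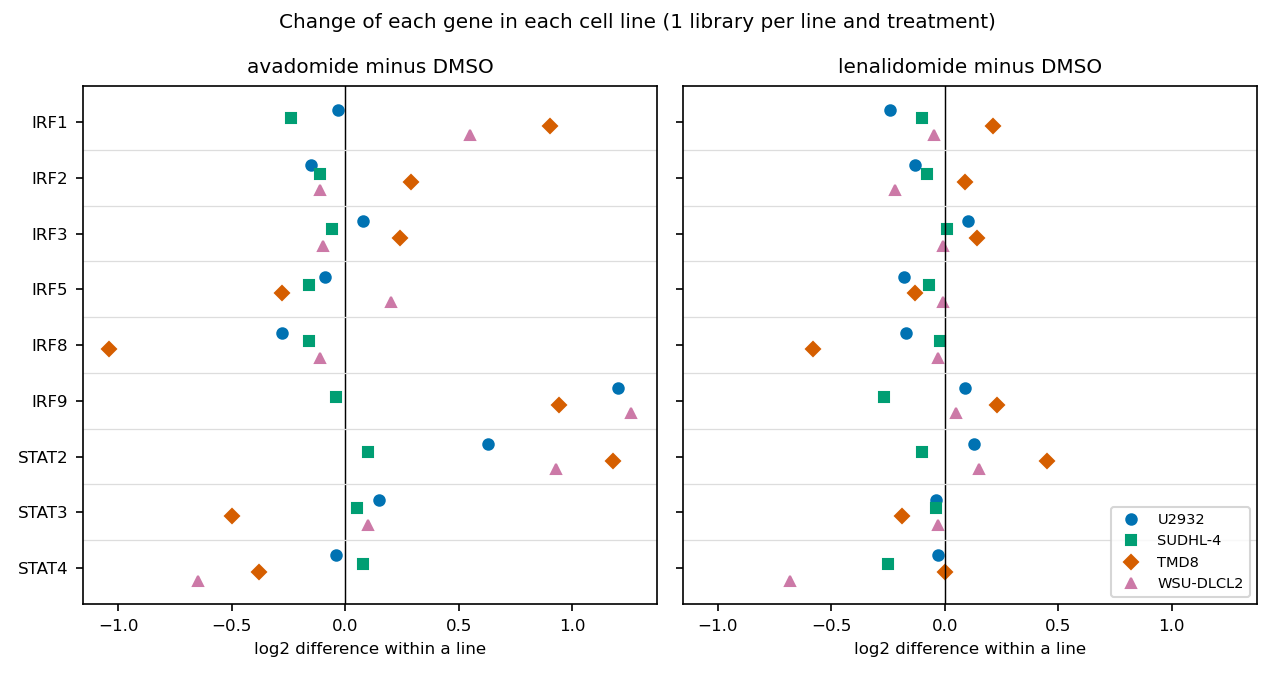
Log2 difference from the DMSO library of the same line (x axis) for each of the 9 genes (y axis), with avadomide on the left and lenalidomide on the right; each point is 1 line, by colour and shape. IRF9 and STAT2 lie to the right under avadomide in U2932, TMD8 and WSU-DLCL2, while TMD8 stands apart to the left for IRF8 (-1.04) and STAT3 (-0.50).

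IRF1 and IRF2 form an activator and repressor pair that reads the same sites. IRF1 (chromosome 5, 132481609 to 132490798) had log2 values of 9.82, 10.03 and 10.72 with DMSO, lenalidomide and avadomide in TMD8. WSU-DLCL2 gave 9.95, 9.90 and 10.50. U2932 gave 11.07, 10.84 and 11.04, whereas SUDHL-4 gave 10.49, 10.39 and 10.25. The avadomide library was therefore clearly highest in TMD8 and WSU-DLCL2 and not in the other 2, with changes of 0.90, 0.55, -0.03 and -0.24. TMD8 and WSU-DLCL2 also had the lowest DMSO levels. Each change is taken from that same DMSO library, so level and change are not independent. IRF1 did not pass over the 4 lines (0.29 ± 0.16; limma adjusted p = 0.208; 95% interval -0.06 to 0.65), and the mean was 0.09 without TMD8 and 0.47 without SUDHL-4 (adjusted p = 0.691 and 0.0646). Genes on the opposite strand, C5orf56 and AC116366.3, overlap IRF1 by 7094 and 9190 bases. Use of strand in the counting is unknown, so their reads may be mixed. IRF2 (chromosome 4, 184387713 to 184474580) changed by 0.29 in TMD8, from 12.57 to 12.86, and by -0.15, -0.11 and -0.11 in U2932, SUDHL-4 and WSU-DLCL2. Its mean change was -0.02 ± 0.07 (limma adjusted p = 0.878), with a 95% interval from -0.17 to 0.14.

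IRF3 and IRF5, the factors that sensors activate by phosphorylation, did not pass the test. IRF3 (chromosome 19, 49659569 to 49665875) ran from 12.93 to 13.95 over the 12 libraries, and its avadomide changes were 0.24 in TMD8, 0.08 in U2932, -0.06 in SUDHL-4 and -0.10 in WSU-DLCL2. Over the lines it stood at 0.04 ± 0.05 (limma adjusted p = 0.599), or -0.07 when each library was centred on its median, with a 95% interval from -0.07 to 0.15, the narrowest of the 9. BCL2L12, on the opposite strand, overlaps 734 bases of it. IRF5 (chromosome 7, 128937612 to 128950035) ran from 10.36 to 12.78, and changed by 0.20 in WSU-DLCL2 against -0.09, -0.16 and -0.28 in the lines U2932, SUDHL-4 and TMD8. Its mean was -0.08 ± 0.07 (limma adjusted p = 0.421; 95% interval -0.24 to 0.07). For both genes the lines went both ways.

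STAT3, which carries signals of the IL-6 and IL-10 receptors (chromosome 17, 42313324 to 42388568), was at 15.34 with DMSO, 15.15 with lenalidomide and 14.85 with avadomide in TMD8. The other lines gave avadomide changes of 0.15 in U2932, 0.05 in SUDHL-4 and 0.10 in WSU-DLCL2. The mean was -0.05 ± 0.09 (limma adjusted p = 0.736), and without TMD8 it was 0.10 (adjusted p = 0.117). STAT4, the transducer of IL-12 signals in T and NK cells (chromosome 2, 191029576 to 191151596), was at 8.63, 8.61 and 8.59 in U2932. In TMD8 it was at 4.57, 4.56 and 4.19. SUDHL-4 gave 1.23, 0.98 and 1.31, and WSU-DLCL2 1.62, 0.95 and 0.97. Its mean change was -0.25 ± 0.16 (limma adjusted p = 0.302). AC067945.3, on the opposite strand, overlaps 2739 bases of it.

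Lenalidomide against DMSO asked the same of the older compound, and 0 of the 9 genes passed, where 0.235% of tested genes did (53 of 22528). At an unadjusted p under 0.05 limma also gave 0 of the 9, where 2922 of all tested genes, 13%, were under it. The lenalidomide and avadomide comparisons share their DMSO libraries. STAT2 stood at 0.16 ± 0.13 (limma adjusted p = 0.679), with a negative change (-0.10) in SUDHL-4 alone and 0.45, 0.13 and 0.15 in the lines TMD8, U2932 and WSU-DLCL2. IRF9 stood at 0.03 ± 0.18 (adjusted p = 0.978), with -0.27 in SUDHL-4 and 0.23, 0.09 and 0.05 in the same 3 lines. IRF8 stood at -0.20 ± 0.13 (adjusted p = 0.547), with -0.58 in TMD8 and -0.17, -0.03 and -0.02 in the lines U2932, WSU-DLCL2 and SUDHL-4. The 95% intervals, from -0.15 to 0.46 for STAT2, from -0.39 to 0.44 for IRF9 and from -0.48 to 0.08 for IRF8, still allow changes of moderate size.

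The direct difference between the compounds, at doses not known to match, passed for 2 of the 9 genes, both higher with avadomide, where 4.73% of tested genes passed and 2.51% were higher. IRF9 was higher with avadomide by 0.82 ± 0.18 (limma adjusted p = 0.0405) and STAT2 by 0.56 ± 0.13 (adjusted p = 0.0486), each in 4 of 4 lines. Both stood close to the threshold, and both were lost with no intensity trend or with no filter on low values (adjusted p from 0.110 to 0.141). With SUDHL-4 left out both calls held. The IRF9 call was lost without U2932 (0.173), TMD8 (0.113) or WSU-DLCL2 (0.187), and the STAT2 call without U2932 (0.169), TMD8 (0.107) or WSU-DLCL2 (0.218). For IRF8 the difference was -0.20 ± 0.13 (adjusted p = 0.389; 95% interval -0.48 to 0.08), and for IRF1 0.34 ± 0.16 (adjusted p = 0.243; 95% interval -0.02 to 0.69). The other 5 had intervals that lay within -0.38 and 0.36.

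**Figure D3:**
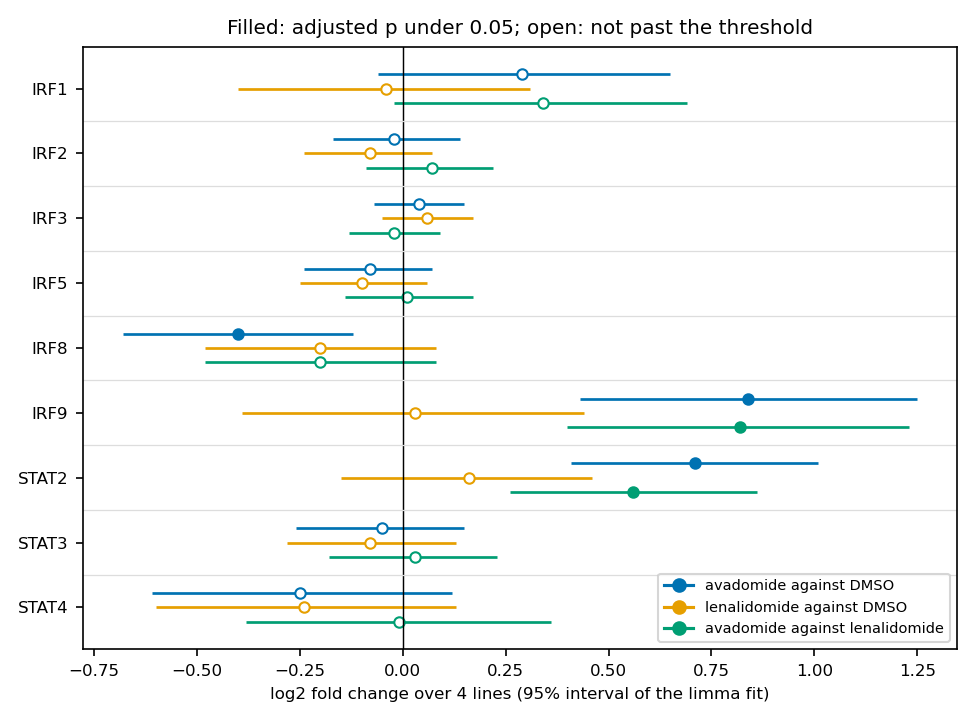
Log2 fold change over the 4 lines (x axis) of each of the 9 genes (y axis) in the 3 comparisons, with the 95% interval of the limma fit as a line; filled points passed an adjusted p of 0.05. The filled points are IRF8, IRF9 and STAT2 for avadomide against DMSO and IRF9 and STAT2 for avadomide against lenalidomide.

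The levels were also compared among the lines. A limma F test of the line terms passed for 9 of 9 genes, as it did for 93.3% of all tested genes, so this describes 4 cell lines and not these genes. The distance between the highest and the lowest line mean had a median of 1.99 (log2) over the 9 genes and 1.23 over all tested genes. STAT4 spanned 7.43, from a line mean of 8.61 in U2932 to 1.18, near the filter's log2 value of 1. TMD8 lay between, and the ranges of SUDHL-4 and WSU-DLCL2 overlapped. STAT3 spanned 3.23, in the order TMD8, U2932, WSU-DLCL2 and SUDHL-4, with line means from 15.11 to 11.88. IRF2 had the same order over 2.89, from 12.70 to 9.81. For STAT3 and IRF2 the ranges of the 3 libraries of each line were all separate, which was so for 17.4% of tested genes.

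TMD8 was also the highest line for IRF3 and IRF5, separate from U2932 in each, and the lowest for IRF8. IRF5 spanned 2.20, with U2932 and WSU-DLCL2 overlapping and SUDHL-4 lowest, and IRF3 spanned 0.86, with WSU-DLCL2 and SUDHL-4 overlapping, but 0.32 when each library was centred on its median (adjusted p = 0.00101). IRF8 spanned 1.99, and SUDHL-4, U2932 and WSU-DLCL2 overlapped at line means from 14.29 to 14.18, against 12.30 in TMD8. IRF1 was highest in U2932, at 10.98 ± 0.13 (SD, 3 libraries that differ in treatment), and the other 3 lines overlapped from 10.37 to 10.11. IRF9 overlapped in TMD8, U2932 and WSU-DLCL2 and was separate and lowest in SUDHL-4, at 7.44 ± 0.15. STAT2 ranges overlapped along the whole order, and its line difference was lost when each library was centred on its median (adjusted p = 0.372). That of IRF1 was lost without the lenalidomide libraries (adjusted p = 0.0705). As background, TMD8 and U2932 are classed as activated B-cell-like and the other 2 as germinal-centre-like.

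TMD8 had the largest avadomide change in size for 7 of the 9 genes, against 32.6% of all tested genes, and WSU-DLCL2 for the other 2. SUDHL-4 and U2932 had it for 0, against 17.7% and 24.4% of tested genes. The median size of the avadomide change over the 9 genes was 0.50 in TMD8, 0.20 in WSU-DLCL2, 0.15 in U2932 and 0.10 in SUDHL-4, where all tested genes gave 0.24, 0.21, 0.21 and 0.18. Under lenalidomide TMD8 had the largest change for 4 of the 9, against 24.9% of tested genes.

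Within lines, some of the 9 genes moved together. After each line's mean was subtracted, IRF9 and STAT2 correlated at a Pearson r of 0.93 over the 12 libraries, and IRF1 at 0.86 with STAT2 and 0.74 with IRF9. IRF8 ran against them, at -0.82 with STAT2 and -0.60 with IRF9, and with STAT3 (0.72) and IRF5 (0.67). IRF3 ran against STAT3 (-0.81), IRF5 (-0.80) and IRF8 (-0.77), but several of these genes hardly moved. The SD of the centred values was 0.06 for IRF3, 0.09 for IRF2 and IRF5 and 0.12 for STAT3. For IRF8, STAT2 and IRF9 it was 0.23, 0.36 and 0.47. IRF2, IRF3, IRF5 and STAT3 would thus miss the SD of 0.2 asked below of the genes compared, and their correlations describe small movements. STAT4 would miss the mean of 5 asked there, with treatment means from 3.76 to 4.01. Its line means in SUDHL-4 and WSU-DLCL2 were 1.18, near the filter's log2 value of 1. The 12 points share 4 lines and 3 treatments, so these are descriptions of this set of libraries. By the same measure, among 2479 genes with a mean of at least 5 and a centred SD of at least 0.2, the 3 most like STAT2 were SAMHD1, a restriction factor that breaks down nucleotides (0.994), LGALS3BP (0.989) and UBA7, the activating enzyme for ISG15 (0.988). Those named as most like IRF9 are IFI35 (0.990) and the actin-severing protein GSN (0.986). For IRF8 they were MINA (0.980), the clone-named AC004540.4 (0.965) and LMO7 (0.964), and for IRF1 those named are PLXND1 (0.979) and HEG1 (0.972). Those most like STAT3 were the protease ADAM8 (0.976), ATP6V0E2-AS1 (0.933) and PLXNA1 (0.921), and those most like IRF5 the IL-2 receptor chain IL2RA (0.964), OSR2 (0.925) and DUSP8 (0.909). For IRF3 they were RUNDC3A-AS1 (0.957), ITGAX (0.947) and ANPEP (0.920). IRF2 had RP11-135A1.3 (0.910), IGHA1 (0.903) and GRAPL (0.865), and STAT4 had ZNRF3 (0.881), AMZ1 (0.856) and IGF2BP2 (0.835).

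The rest of both families was read from a list of 7 genes, of which 3 rose and 1 fell with avadomide (median 0.016, against 0.011 over all tested genes). Over all tested genes 13.6% rose and 11.2% fell, the background for this list and those below. No list was tested against that share. IRF7, a driver of interferon genes, rose by 1.90 ± 0.40 (limma adjusted p = 0.00850) and STAT5A by 0.73 ± 0.22 (adjusted p = 0.0353), while STAT5B fell by 0.26 on the log2 scale (SE 0.04; adjusted p = 0.00276). IRF4 and STAT6 had means of -0.07 and 0.02 and did not pass. Neighbouring STAT genes went different ways. STAT5B, STAT5A and STAT3 lie side by side on chromosome 17, with gaps of 10.8 and 1.4 kb, and stood at -0.26, 0.73 and -0.05. The calls of IRF7 were lost without U2932 or WSU-DLCL2 (adjusted p up to 0.0606) and those of STAT5A without U2932, TMD8 or WSU-DLCL2 (up to 0.158), leaving 2 of the 4 calls without U2932 or without WSU-DLCL2. SUDHL-4 changed by -0.06 for IRF7 and -0.24 for STAT5A, against at least 2.37 and 0.80 in the other 3 lines.

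Upstream of STATs, 5 of 16 tested receptors and kinases rose and 0 fell with avadomide (median 0.105), where 13.6% and 11.2% of all tested genes did. IFNAR1, a chain of the type I interferon receptor, rose by 0.30 ± 0.03 (limma adjusted p = 0.000503), with 0.28, 0.32, 0.29 and 0.31 in U2932, SUDHL-4, TMD8 and WSU-DLCL2, so SUDHL-4 moved as much as the others. IL6ST, the shared chain of the IL-6 family receptors, rose by 0.97 ± 0.11 (adjusted p = 0.000704) and IL6R by 0.96 ± 0.15 (adjusted p = 0.00227). The kinase JAK2 rose by 0.52 ± 0.12 (adjusted p = 0.0109; 0.0774 without WSU-DLCL2) and IL10RA by 0.38 ± 0.12 (adjusted p = 0.0411; up to 0.158 without SUDHL-4, TMD8 or WSU-DLCL2). The other interferon receptor chains IFNAR2, IFNGR1 and IFNGR2 stood at 0.00, 0.24 and -0.05, and JAK1 and TYK2 at -0.15 and 0.07. Without TMD8 the list held 8 calls and without WSU-DLCL2 3. Among 17 brakes on the pathway, 5 rose and 0 fell (median 0.053). They were USP18, which blocks the interferon receptor (3.08 ± 0.79; adjusted p = 0.0191; -0.34 in SUDHL-4), SOCS4 (0.34), SOCS5 (0.25), PIAS2 (0.24) and PIAS1 (0.18). The USP18 call was lost without U2932, TMD8 or WSU-DLCL2 (up to 0.0866), and without SUDHL-4 3 and without WSU-DLCL2 2 calls were left in that list. SOCS5, PIAS1 and PIAS2 were no longer called when each library was centred on its median (adjusted p from 0.107 to 0.376).

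**Figure D4:**
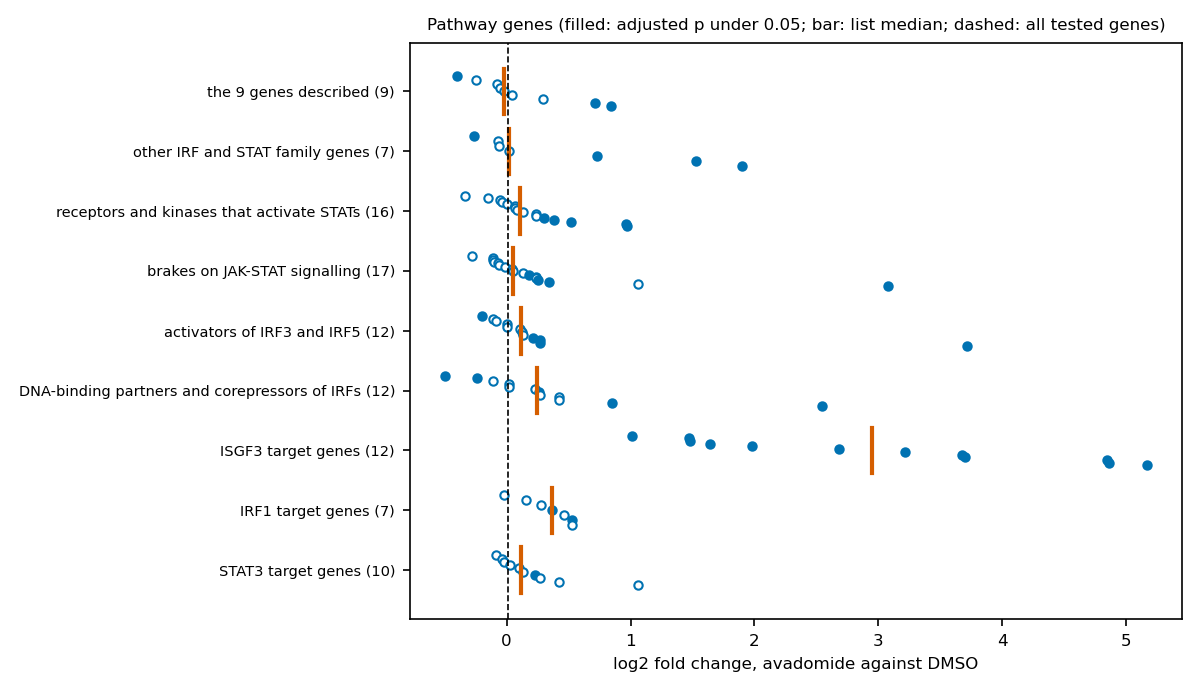
Log2 fold change, avadomide against DMSO (x axis), of the 9 genes and of each gene in 8 lists of pathway genes (y axis, number tested in brackets); filled points passed an adjusted p of 0.05, the bar is the list's median and the dashed line the median of all tested genes. The ISGF3 targets stand apart with a median of 2.949, and the other medians lie between -0.019 and 0.37.

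Among 12 activators of IRF3 and IRF5, 4 rose and 1 fell (median 0.116). TMEM173, known as STING, the adaptor that responds to cytosolic DNA, rose by 3.72 ± 0.46 (limma adjusted p = 0.000956), and the U2932 library moved from 0.90 with DMSO to 3.42. SUDHL-4 went from 2.57 to 5.13, TMD8 from 3.56 to 8.94 and WSU-DLCL2 from 1.64 to 6.04. The adaptors TICAM1 and MYD88 each rose by 0.27 and the kinase TBK1 by 0.21, and the kinase IRAK1 fell by 0.20 on the log2 scale. The first 3 of these were lost without 2 or 3 of the lines (adjusted p up to 0.132), while TMEM173 and IRAK1 held without any 1 line. With U2932 or WSU-DLCL2 left out the list held 3 calls, and with TMD8 left out 2. Among 12 DNA-binding partners and corepressors, 3 rose and 2 fell (median 0.245). BATF2 rose by 2.55 ± 0.49 (adjusted p = 0.00569), BATF3 by 0.85 and JUND by 0.26, while the IRF8 partner SPIB fell by 0.50 and the IRF2 corepressor IRF2BP1 by 0.24. Without U2932, TMD8 or WSU-DLCL2 this list held 2, 3 and 3 calls, where BATF3 and JUND lost theirs (adjusted p up to 0.129), as did SPIB without U2932 or TMD8 (up to 0.0840).

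Genes that ISGF3, IRF1 and STAT3 are known to drive were read from 3 lists, and the targets of IRF2, IRF3, IRF5, IRF8 and STAT4 were not listed. Of 12 ISGF3 targets, 12 rose with avadomide (median 2.949), led by IFIT1 (5.17), IFI44L (4.86) and IFIT3 (4.85), with a list median of 0.70 in SUDHL-4 against 2.79, 3.35 and 4.63 in the lines U2932, TMD8 and WSU-DLCL2. The changes of IRF9 and STAT2 themselves were smaller, at most 1.26 and 1.18 in any line. Without WSU-DLCL2, 8 of these 12 were called. Of 7 tested IRF1 targets 2 rose, the peptide transporter TAP1 (0.53 ± 0.13; limma adjusted p = 0.0162) and the immunoproteasome subunit PSMB9 (0.37 ± 0.08; adjusted p = 0.0117), and 0 fell (median 0.37). With U2932, TMD8 or WSU-DLCL2 left out, 1 was called. Of 10 STAT3 targets 1 rose, the survival factor MCL1 (0.23 ± 0.04; adjusted p = 0.00441; 0.106 with each library centred on its median), and 0 fell (median 0.113); without SUDHL-4, 2 were called. SOCS3, a STAT3 target that feeds back on the receptor, did not pass (1.06 ± 0.38; adjusted p = 0.0688). Its DMSO level was 14.23 in TMD8, against 4.59 in U2932, 2.40 in SUDHL-4 and 2.39 in WSU-DLCL2. SOCS3 also stands among the brakes, and JUNB and BATF among the DNA-binding partners. When each library was centred on its median, IL10RA, TBK1, TICAM1, MYD88 and JUND also lost their calls (adjusted p from 0.0597 to 0.355). A fit to only the 8 libraries of avadomide and DMSO left 2 calls among the other IRF and STAT genes, 3 among receptors and kinases, 2 among brakes, 1 among activators, 0 among partners, 7 among ISGF3 targets and 0 among IRF1 or STAT3 targets. Under lenalidomide 0 of the 90 tested genes of these 8 lists passed in limma, and 15 had an unadjusted p under 0.05, a share of 16.7% near the 13% of all tested genes.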

How the data were processed

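RNA-seq was analysed in 12 libraries, 3 treatments in each of 4 cell lines. The authors deposited 1 table of log2 expression values per gene symbol, from -2.41 to 20.1. How the values were normalized is not given in the sources used here. Read depth is therefore unknown, and no counting interval can be given. STAR, Salmon, MACS and the build hg38 are named, per the submitters' processing notes, without their roles. Of 58684 entries, 28 with symbols turned into dates were left out and 17112 of the rest were 0 in every library.

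The 22528 genes that reached a log2 value of 1 in 4 or more libraries were fitted in limma 3.58.1 (R 4.3.3) with intensity trend, treatment and cell line as factors, all 12 libraries, two-sided, with Benjamini-Hochberg adjustment over all tested genes at 0.05. The model left 6 residual and 9.62 total degrees of freedom. The log2 values were used as deposited, so no pseudocount was needed. The fit was tested on simulated data. Cell line is the pairing factor, from the labels. Deviations from treatment means correlated from 0.918 to 0.977 for libraries of 1 line and from -0.589 to 0.199 for libraries of different lines. Alternatives changed the line block, normalization, centring, filter, variance prior, libraries fitted and lines included. Tables and figures used Python 3.11.15. Gene positions came from GENCODE release 29.

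The genes, lists and tests were chosen with earlier results of these data known. Named were the 9 genes, the 3 genes most like each, every called gene of a list with at most 8 calls, and otherwise the 3 largest changes. Others named in passing, among them SOCS3, IRF4, STAT6 and receptor chains that did not pass, were chosen after their values were seen. A few results on other genes under these rules are not reported here.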

Additional observations from a re-analysis of the deposited data

Results flagged for a closer look

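Among 45 groups of 4 values, 6 had 1 line far from the other 3, where chance gives about 1 in 20, and all 6 were TMD8. The groups are not independent, since they share lines and the DMSO libraries. The IRF8 level was lowest in TMD8 with DMSO (12.84, others 14.22 to 14.40), with lenalidomide (12.26, others 14.19 to 14.33) and with avadomide (11.80, others 14.11 to 14.19). The IRF2 change with avadomide was highest in TMD8 (0.29, others -0.15 to -0.11). The STAT3 change was lowest in TMD8 with avadomide (-0.50, others 0.05 to 0.15) and with lenalidomide (-0.19, others -0.04 to -0.03). What sets TMD8 apart was not tested.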

How the results depend on the processing

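With no replicate block, 0 genes passed in any of the 3 treatment comparisons (514, 61 and 110 at an unadjusted p under 0.05 for avadomide, lenalidomide and avadomide against lenalidomide), and IRF8 (-0.40), IRF9 (0.84) and STAT2 (0.71) against DMSO and IRF9 (0.82) and STAT2 (0.56) against lenalidomide each had an adjusted p of 1. Quantile normalization gave 21 lenalidomide calls, -0.00031 for IRF9 with lenalidomide, and 0.55 for STAT2 between the compounds (adjusted p = 0.0504). Median centring moved the median of all genes to -0.099 with avadomide. It gave -0.07 for IRF3 with avadomide, 0 lenalidomide calls (2444 unadjusted), 1736 calls between the compounds with -0.02 for IRF2, -0.07 for IRF5 and -0.06 for STAT3, and line differences of 0.26 for STAT2 and 0.32 for IRF3. Without a filter, IRF8 stood at -0.40 (adjusted p = 0.128), with 0 lenalidomide calls (3609 unadjusted) and 220 between the compounds, where IRF9 (0.82) and STAT2 (0.56) had adjusted p = 0.114 and 0.141. A log2 value of at least 5 gave 132 lenalidomide calls and left STAT4 untested, since it reached that level only in U2932. No intensity trend gave IRF8 -0.40 (0.0909), 1 lenalidomide call and 10 between the compounds, with IRF9 0.82 (0.110) and STAT2 0.56 (0.126). A robust prior gave IRF8 -0.40 (0.0542) and STAT2 0.56 between the compounds (0.0582). Only the 8 libraries compared gave 1376 avadomide and 669 lenalidomide calls, with IRF8 -0.40 (0.169), IRF9 0.84 (0.0744) and STAT2 0.71 (0.0595). Without the lenalidomide libraries the IRF1 line difference was 0.83 (0.0705).

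Leaving out 1 line gave 2666 to 4644 avadomide calls, 0 to 67 for lenalidomide and 0 to 507 between the compounds. With avadomide the ranges were 0.09 to 0.47 for IRF1, -0.12 to 0.02 for IRF2, -0.02 to 0.09 for IRF3, -0.18 to -0.02 for IRF5, -0.49 to -0.18 for IRF8, 0.70 to 1.14 for IRF9, 0.56 to 0.92 for STAT2, -0.12 to 0.10 for STAT3 and -0.36 to -0.11 for STAT4. With lenalidomide they were -0.13 to 0.02 for IRF1 and -0.04 to 0.12 for IRF9. Between the compounds they were -0.06 to 0.0056 for IRF3, -0.05 to 0.07 for IRF5, 0.69 to 1.01 for IRF9, 0.48 to 0.67 for STAT2, -0.03 to 0.14 for STAT3 and -0.12 to 0.11 for STAT4. Causes were not tested. GC content and length correction was not run, since 75.9% of tested genes had both and 80% were needed, and another pseudocount could not apply to log2 values.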

Other observations

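IRF4, a factor of plasma cells and activated B cells, went from 14.71 with DMSO to 14.03 with avadomide in U2932, and from 16.49 to 15.35 in TMD8. WSU-DLCL2 went the other way, from 9.66 to 11.17, and SUDHL-4 was at 8.11 and 8.13. Over the 4 lines it stood at -0.07 ± 0.33 (limma adjusted p = 0.900), and the difference between lines was not tested.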
